A study of Homo sapiens with 8 samples.

Results

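TET3 depletion was set directly against TET2 depletion in NCCIT cells, a human embryonal carcinoma line. The comparison used the 2 arrays of cells transfected with siRNA against TET3 (siTET3) and the 2 arrays of cells transfected with siRNA against TET2 (siTET2), 4 of the 8 arrays in the series. The other 4 arrays came from cells given siRNA against TET1 (siTET1) or a non-targeting control siRNA (siNTC). They were not part of the contrast and entered only the estimate of the spread and the description of levels. All cells were undifferentiated, and every group, controls included, went through the same transfection. Each siRNA was a commercial pool against 1 gene, so the depletions were transient and partial. RNA was hybridised to Affymetrix Human Gene 1.0 ST arrays, and the values are log2 intensities for 18417 genes. Single values are from 1 array. A difference is the siTET3 mean minus the siTET2 mean (log2, n = 2 arrays in each group), followed by ± its standard error from the linear model.

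The TETs are iron- and 2-oxoglutarate-dependent dioxygenases that oxidise 5-methylcytosine in DNA to 5-hydroxymethylcytosine. TET1 and TET2 are known from pluripotent cells, and TET3 is best known from the oocyte and zygote. The wider enzyme family also holds the prolyl hydroxylases that mark HIF1A for degradation when oxygen is present, the collagen hydroxylases and the JmjC histone demethylases. When HIF1A is stable it pairs with ARNT and binds the letters ACGTG in DNA near genes for glucose uptake, glycolysis, angiogenesis and matrix remodelling.

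Embryonal carcinoma markers bore out the labelled cell type. All 10 measured markers, SOX2, LIN28A, SALL4 and DNMT3B among them, lay above background, at a mean log2 level of 11.25 to 11.27 on the siTET2 arrays and 11.35 to 11.38 on the siTET3 arrays. Markers of trophoblast (0 of 6) and of blood and endothelium (0 of 7) were not above background, 2 of 9 of yolk sac and visceral endoderm were, and so were 3 of 9 of fibroblasts and 5 of 9 of neurons. Of the neuron markers STMN2 (-0.22) and SYT1 (-0.31) were lower in siTET3, while the mean level of the 9 was 6.73 and 6.64 on the siTET2 arrays and 6.64 and 6.61 on the siTET3 arrays. The part of these markers in the differences below was not tested. Over genes, the siTET2 arrays correlated with each other at r = 0.999 and the siTET3 arrays at 0.998. Replicate 1 of siTET3 lay at 0.996 from both siTET2 arrays and replicate 2 at 0.997. The SD of the difference between replicates over genes was 0.110 in siTET2 and 0.165 in siTET3. Replicate 1 of siTET3 had a narrower range of values, with an SD over genes of 2.29, against 2.32 on replicate 2 and 2.33 on both siTET2 arrays. Its quartiles were 4.98 and 8.85, against 4.90 and 8.90 on replicate 2. The part of this in the differences below was not tested. In such bulk RNA, fewer cells of a type and less RNA per cell cannot be told apart.

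Each targeted transcript was lower in the group that targeted it. TET3 was at 7.60 and 7.50 on the siTET2 arrays, at 6.23 and 6.66 on the siTET3 arrays and at 7.74 and 7.30 on the siNTC arrays. It differed by -1.10 ± 0.148 (adjusted p = 0.000425), a 2.15-fold lower level in siTET3 with no overlap between the arrays. TET2 was at 6.95 and 6.92 in siTET2 and at 7.22 and 7.48 in siTET3, a difference of 0.41 ± 0.095 (adjusted p = 0.0128). This call was lost without siTET2 replicate 1 (adjusted p = 0.0816), without siTET2 replicate 2 (0.108), without siTET3 replicate 2 (0.0671) and without an intensity trend (0.0519). The siNTC arrays had higher TET2, 7.71 and 7.91, than the arrays of either group. A dimmer TET2 cluster was at 6.588 and 6.964 in siTET2 and at 7.003 and 6.925 in siTET3, where the groups overlapped. In a limma fit over all transcript clusters, the brighter TET2 cluster did not pass the test (adjusted p = 0.0806).

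TET1 was targeted in neither group and also differed. It was at 10.28 on both siTET2 arrays and at 10.93 and 11.05 on the siTET3 arrays, so that siTET3 was higher by 0.72 ± 0.048 (adjusted p = 2.65e-06), or 1.64-fold. The siNTC arrays, at 10.62 and 10.53, lay between the groups. The DNA methyltransferases DNMT1 (-0.13 ± 0.042, adjusted p = 0.0744), DNMT3A (0.04 ± 0.072), DNMT3B (0.05 ± 0.038) and their cofactor DNMT3L (-0.03 ± 0.093) did not pass the test. HELLS and CDCA7, a remodeller needed for DNA methylation and its partner, and AHCY, which removes the product of methyl transfer, were the 3 of 20 measured members of that list that were higher, by 0.25, 0.19 and 0.18. The count was 1 when either siTET2 array was left out and 0 without an intensity trend. In the list of TETs, their cofactor enzymes and the repair genes for oxidised or deaminated cytosine, 5 of 24 were higher and 3 lower, the TETs included, and these were 2 and 2 without siTET2 replicate 2 or without an intensity trend, 3 and 1 without siTET2 replicate 1, and 3 and 4 without siTET3 replicate 2. For both lists, the shares over all genes were 4.94% higher and 7.24% lower. The glycosylase MBD4 was higher in siTET3, at 9.40 and 9.34 against 8.86 and 9.04 (0.42 ± 0.064, adjusted p = 0.000997). TDG, the glycosylase for oxidised cytosine, did not pass the test (0.09, adjusted p = 0.657). IDH1, a relative of IDH2 named after its values were seen, was higher (0.12, adjusted p = 0.0329). IDH1 was not among the genes followed singly through the other fits. The glycosylase UNG (-0.18 ± 0.0408, adjusted p = 0.0104) and IDH2 (-0.32 ± 0.0607, adjusted p = 0.00434), which makes 2-oxoglutarate in mitochondria, were lower, and both calls were lost without siTET2 replicate 1. Among housekeeping genes TUBA1C (0.06), RPL30 (-0.03) and GAPDH (-0.12) were not past the test, and the dynein light chain DYNLL1 was higher by 0.23 ± 0.0415 (adjusted p = 0.00332), a call that was lost without siTET2 replicate 2.

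**Figure D1:**
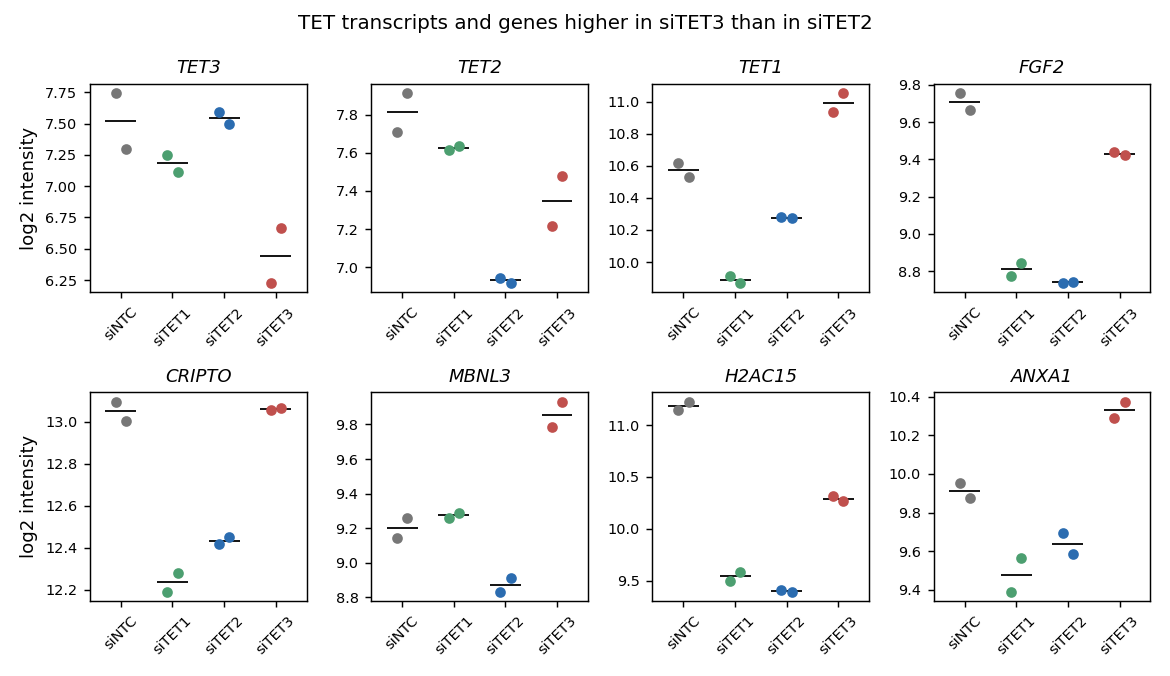
Log2 intensity (vertical axes) on each array of the 4 groups (horizontal axes; points, arrays; bars, group means) for the 3 TET transcripts and 5 genes that were higher in siTET3 than in siTET2. TET3 was lowest in siTET3 and TET2 in siTET2. Both siTET3 arrays lay above both siTET2 arrays for TET1, FGF2, CRIPTO, MBNL3, H2AC15 and ANXA1. The rule that picked the largest differences required this separation.

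Across all genes, 2244 of 18417 (12.2%) differed between the depletions at an adjusted p under 0.05 by limma's moderated test. Of these, 910 (4.94% of the genes tested) were higher in siTET3 and 1334 (7.24%) were lower, so that 59.4% of the differences were decreases. After quantile normalization the numbers were 2413 in all, 1238 higher and 1175 lower, and the share of decreases was 48.7%. The differences were mostly small, with a median size of 0.27 among genes past the test and a median over all genes of 0.01. At least a 1.5-fold difference was found for 95 genes, 14 higher (0.076%) and 81 lower (0.44%). The 13 genes past 2-fold were all lower in siTET3, and the largest increase, in MBNL3, was 1.98-fold. Single arrays weighed on the counts: 887 genes passed without siTET2 replicate 1 (354 higher, 533 lower), 817 without siTET2 replicate 2 (356 higher, 461 lower) and 1520 without siTET3 replicate 1 (732 higher, 788 lower). Of the transcript clusters with no symbol or several, which were tested apart, 0.463% passed.

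**Figure D2:**
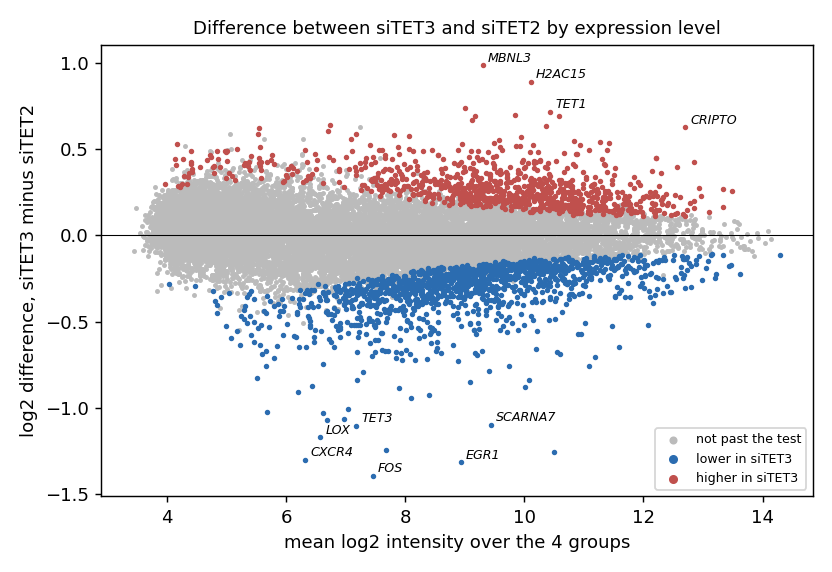
Difference between the siTET3 and siTET2 means (vertical axis, log2) against the mean log2 intensity of the 4 groups (horizontal axis), with 1 point per gene. The 1334 genes lower in siTET3 are blue, the 910 higher ones are red, and the decreases of FOS, EGR1, CXCR4, LOX, TET3 and SCARNA7 exceed every increase in size.

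The position of the untargeted control showed on which side of siNTC the depletions parted. Over genes, siNTC arrays correlated with the siTET2 and siTET3 arrays at 0.989 to 0.991, and siTET2 with siTET3 arrays at 0.996 to 0.997. Differences from siNTC that the depletions share were not told apart from those of a single depletion. For the 1334 genes lower in siTET3, the siNTC mean lay below both depletions for 437 (32.8%), between them for 406 (30.4%) and above both for 491 (36.8%). For the 910 higher genes, it lay below both for 212 (23.3%), between for 287 (31.5%) and above both for 411 (45.2%). Among the 81 genes lower by at least 1.5-fold, siNTC lay below both depletions for 35, between for 33 and above both for 13. The siTET1 mean was between siTET2 and siTET3 for 722 of the lower genes, below both for 129 and above both for 483.

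Of all 39 gene lists described, hypoxia targets had the highest share of members lower in siTET3. Of 36 measured targets outside glycolysis, 25 (69.4%, against 7.24% of all genes) were lower in siTET3 and 0 were higher by limma, with 27 lower and 0 higher at an unadjusted p under 0.05. Their median difference was -0.39, against 0.01 over all genes, and 34 of the 36 were negative. The count of lower members was 23 after quantile normalization and 22 without an intensity trend, and it ran from 19 to 25 when single arrays were left out. The mean log2 level of the 36 was 8.42 and 8.43 on the siTET2 arrays, 7.97 and 8.01 on the siTET3 arrays, 7.88 and 7.90 on the siTET1 arrays, and 7.69 and 7.65 on the siNTC arrays. Of the 25 lower members, all had a lower mean in siTET1 than in siTET2, and 17 also a lower one than in siTET3. They passed the test with siTET2 above siTET3, which favours means of other groups below siTET2. Of all 1334 lower genes, siTET1 lay between the depletions for 54.1% and below both for 9.67%, and siNTC below both for 32.8%. Among the 25, the siNTC mean lay below siTET3 for 20, between the depletions for 4 and above siTET2 for 1. That member was ADM, the vasodilator peptide adrenomedullin, which was named after its values were seen, at 9.95 on both siTET2 arrays, 9.57 and 9.68 in siTET3, and 10.53 and 10.46 in siNTC.

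Promoter windows of these genes are shown because the letters ACGTG, bound by HIF, occur in many of them. Windows of 30 bases around the match nearest the start site, with the matched letters in capitals (CACGT is ACGTG read on the other strand), were taken from RefSeq promoters on GRCh38.p14 and are written in the direction of the gene. They lie at chr5:122078284-122078313 (LOX, minus strand), chr3:4979276-4979305 (BHLHE40, plus), chr10:72273787-72273816 (DDIT4, plus), chr2:118088364-118088393 (INSIG2, plus), chr3:146161313-146161342 (PLOD2, minus), chr10:73096935-73096964 (P4HA1, minus) and chr10:131982039-131982068 (BNIP3, minus).
LOX: gtaactttgcaaACGTGccagaaagtttaa
BHLHE40: cacagggtagaaCACGTagctccaacccac
DDIT4: agaacgttgcttACGTGcgcccggagtcca
INSIG2: ggctcgcaggtcCACGTcttattgacagca
PLOD2: caaacagtccagACGTGgggcccaggaggg
P4HA1: tgtgatcgagctCACGTagcgagggctgca
BNIP3: cgcacgcgccgcACGTGccacacgcacccc

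ACGTG on either strand stood in 13 of the 19 promoters available for the lower targets (68.4%) and in 4 of 9 for the targets that were not lower (44.4%). Over all 27305 promoters of the same length the share was 21.6%. The letters overlap with the E-box CACGTG, which stood in 6 of the 19 (31.6%) and in 3 of the 9 (33.3%). It stood in 7.43% of all promoters and in 8.88% of those of genes tested. Among glycolysis genes the match was found for 3 of 10 lower members and for 6 of 13 others. A match describes the letters in the window and is not evidence of binding.

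The largest decreases among the hypoxia targets were in a surface receptor and a secreted enzyme. CXCR4, the receptor of the chemokine CXCL12, was at 7.24 and 7.07 in siTET2 and at 5.87 and 5.84 in siTET3 (-1.30 ± 0.11, adjusted p = 1.59e-05). Its siNTC level, 6.26 and 6.02, lay above siTET3 and below siTET2. LOX, which cross-links collagen and elastin, was at 7.78 and 7.94 against 6.69 and 6.68 (-1.17 ± 0.095, adjusted p = 1.16e-05), with siNTC lower still, at 5.47 and 5.38. The stanniocalcins, glycoprotein hormones of calcium and phosphate handling, were lower together. STC2 was at 9.18 and 9.17 in siTET2 and 8.24 and 8.26 in siTET3 (-0.92 ± 0.072), and STC1 was at 10.21 and 10.29 against 9.42 and 9.51 (-0.79 ± 0.0575). VEGFA, the main angiogenic growth factor, was chosen after its values were seen. It was at 8.37 and 8.34 in siTET2, at 7.67 and 7.71 in siTET3 (-0.67 ± 0.070, adjusted p = 7.82e-05), and at 7.25 and 7.35 in siNTC. For STC1 and VEGFA the siTET3 arrays also lay below both siTET2 arrays, which the naming rule had required of CXCR4, LOX and STC2.

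Regulators inside the cell were lower as well. BHLHE40 and BHLHE41 are related transcriptional repressors of the circadian clock. BHLHE40 was at 8.17 and 8.32 in siTET2, 7.31 and 7.17 in siTET3 and 5.99 and 5.81 in siNTC, and siTET3 was lower than siTET2 by a difference of -1.01 ± 0.093 (adjusted p = 2.90e-05). BHLHE41, chosen after its values were seen, was at 7.75 on both siTET2 arrays and at 7.20 and 7.12 in siTET3 (-0.59 ± 0.083). DDIT4, an inhibitor of mTORC1 signalling, was at 9.01 and 9.11 against 8.04 and 8.19 (-0.94 ± 0.081, adjusted p = 1.63e-05). INSIG2, which holds back sterol synthesis, HILPDA, a lipid droplet protein, and BNIP3, a mitophagy receptor, were also chosen after their values were seen and differed by -0.73, -0.52 and -0.39. The targets that did not pass the test included NDRG1 (0.06), BNIP3L (-0.07), CA12 (-0.16) and CITED2 (-0.16), a competitor of HIF1A for its coactivators.

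**Figure D3:**
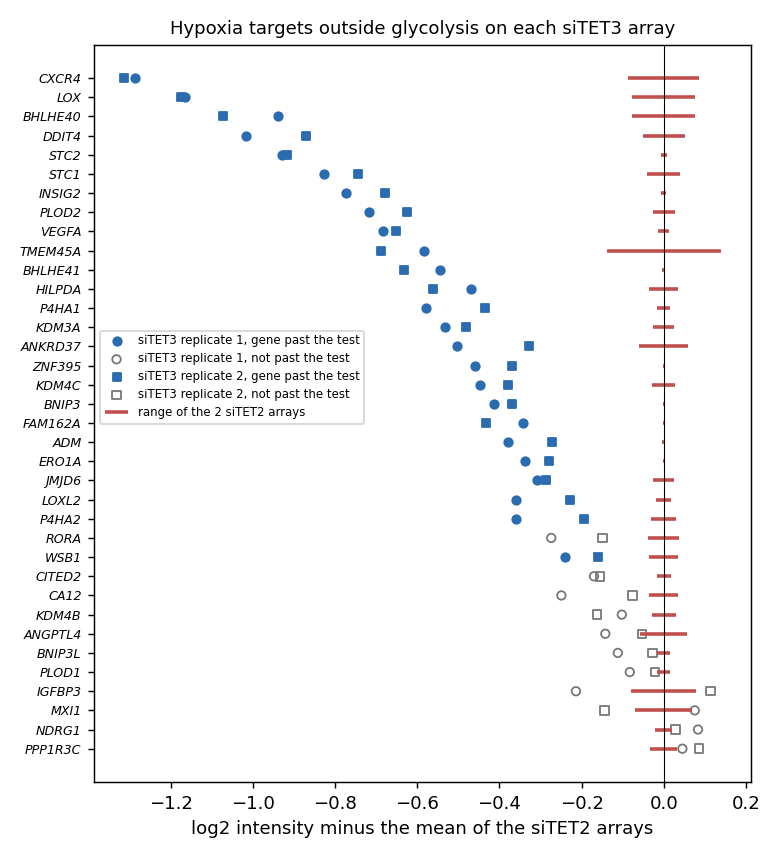
Log2 intensity on each siTET3 array minus the siTET2 mean (horizontal axis) for the 36 measured hypoxia targets outside glycolysis (vertical axis; circles, replicate 1; squares, replicate 2; filled, past the test; open, not past it; red lines, range of the siTET2 arrays). The 25 genes past the test lie left of the siTET2 range on both arrays, and CXCR4 lies furthest left (difference of the group means, -1.30).

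Of 11 measured oxygen sensors and HIF subunits, 1 (9.09%, near the 7.24% of all genes) was lower and 0 were higher by limma, and the same numbers held at an unadjusted p under 0.05. The lower gene was EGLN1, the main HIF prolyl hydroxylase, at 8.90 and 8.92 in siTET2, 8.24 and 8.32 in siTET3 and 8.36 and 8.18 in siNTC (-0.62 ± 0.069, adjusted p = 9.71e-05). HIF1A itself was at 11.95 and 11.94 in siTET2 and at 11.94 and 12.05 in siTET3 (0.05 ± 0.045), with overlapping arrays. Its partner ARNT (-0.07 ± 0.039) and the sensor EGLN3 (-0.09 ± 0.079) did not pass the test either.

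In glycolysis, some regulators and the glucose transporter SLC2A1 were among the lower genes, while the transporter SLC2A3 (0.06) did not pass the test. Of 25 measured genes, 10 (against 7.24% of all genes) were lower and 2 (8.0%, against 4.94%) higher, with a median of -0.07. The number lower was 5 without siTET2 replicate 2, 6 without siTET3 replicate 1 and 5 without an intensity trend. Of the bifunctional kinases that set fructose-2,6-bisphosphate, the activator of glycolysis, PFKFB3 and PFKFB4 had the largest decreases of the list. PFKFB1 (0.12) and PFKFB2 (0.22) of the same family did not pass the test. PFKFB4 was at 8.15 and 8.04 in siTET2, 7.16 and 7.35 in siTET3 and 6.28 and 6.16 in siNTC (-0.84 ± 0.094, adjusted p = 0.000107). PFKFB3 was at 9.83 and 9.79 against 9.04 and 9.12, with siNTC at 7.95 on both arrays (-0.73 ± 0.053, adjusted p = 4.94e-06). The kinase PDK1, which keeps pyruvate out of the mitochondria, hexokinase HK2 and the glucose transporter SLC2A1 were lower by differences of -0.52, -0.46 and -0.36. Of the enzymes not past the test, LDHA, which makes lactate, was at 12.47 and 12.49 in siTET2 and 12.51 and 12.50 in siTET3 (0.02 ± 0.030), and PGK1 differed by -0.06 ± 0.032. The members that were higher, both named after their values were seen, were the aldolase ALDOC (0.24 ± 0.044, adjusted p = 0.00385) and the kinase PDK3 (0.20 ± 0.056, adjusted p = 0.0334), and both calls were lost without siTET2 replicate 2.

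Other 2-oxoglutarate dioxygenases share their cofactors with the TETs. Of 41 measured, 14 (34.1%, against 7.24% of all genes) were lower in siTET3 and 3 higher, with a median of -0.11. The number lower was 8 without siTET2 replicate 1, 7 without siTET2 replicate 2 and 8 without siTET3 replicate 1 or without an intensity trend, and 7 of the 14 also stood in the list of hypoxia targets or, for EGLN1, of oxygen sensors. The collagen hydroxylases were led by PLOD2, at 9.92 and 9.98 in siTET2 and 9.23 and 9.32 in siTET3 (-0.67 ± 0.058, adjusted p = 1.86e-05). P3H2 was at 9.29 and 9.32 against 8.70 and 8.74 (-0.58 ± 0.0765), and both groups lay far above siNTC, at 6.37 and 6.63. P4HA1 was at 9.60 and 9.63 against 9.03 and 9.18 (-0.51 ± 0.063). Of the histone demethylases, KDM3A (-0.51 ± 0.0535), which acts on histone H3 lysine 9, and KDM6B (-0.50 ± 0.071), which acts on histone H3 lysine 27, were lower, and for each of them the groups did not overlap.

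The largest decreases of all, in FOS and EGR1, were of immediate early genes, the transcription factors and phosphatases induced within minutes of growth factor signalling. FOS, an AP-1 subunit, was at 8.74 and 8.60 in siTET2 and at 7.24 and 7.31 in siTET3, a 2.63-fold lower level (-1.39 ± 0.076, adjusted p = 5.99e-07). The siTET1 arrays, at 6.98 and 6.94, and the siNTC arrays, at 6.87 and 6.91, were close to siTET3, so that siTET2 alone stood high. EGR1, a zinc finger factor, was at 9.98 and 9.92 against 8.61 and 8.66 (-1.32 ± 0.060, adjusted p = 1.31e-07), with siNTC at 8.76 and 8.91. FOSB was at 6.06 and 6.13 against 5.41 and 5.54 (-0.62 ± 0.10), and the MAP kinase phosphatase DUSP1 at 8.87 and 8.85 against 8.32 and 8.29 (-0.56 ± 0.062). Both genes had siNTC levels below those in siTET2, at 4.91 and 5.07 for FOSB and 8.27 and 8.31 for DUSP1. In all 8 of 28 measured members (28.6%, against 7.24% of all genes) were lower and 0 higher by limma, with 14 lower and 0 higher at an unadjusted p under 0.05. The number was 4 without siTET2 replicate 2. The nuclear receptor NR4A2 was lower by at least 1.23-fold and not above background on the siTET3 arrays, and this call was among those lost without that array. MYC (0.01), ATF3 (0.06), JUNB (0.13) and EGR3 (0.00) did not pass the test.

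**Figure D4:**
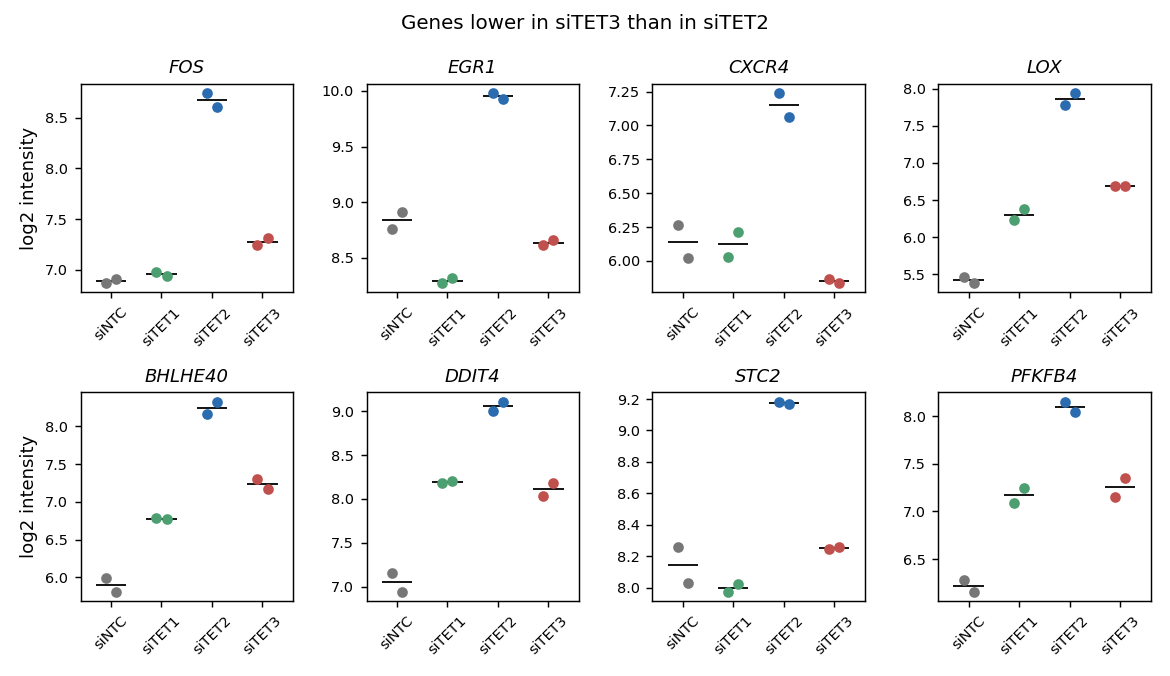
Log2 intensity (vertical axes) on each array of the 4 groups (horizontal axes; points, arrays; bars, group means) for 8 genes that were lower in siTET3 than in siTET2. The siTET2 arrays were the highest of the 8 arrays for each gene, and for LOX, BHLHE40, DDIT4 and PFKFB4 the siNTC arrays were the lowest.

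Ligands, receptors and feedback inhibitors of the FGF and ERK pathway were more often lower than higher in siTET3. FGF2, the growth factor that sustains human pluripotent cells in culture, was the 1 member that was higher (4.17%, against 4.94% of all genes). It was at 8.74 on both siTET2 arrays and 9.44 and 9.42 on the siTET3 arrays (0.69 ± 0.052, adjusted p = 6.21e-06). Its siNTC level was 9.76 and 9.66, and its siTET1 level, 8.78 and 8.85, was near that of siTET2. The feedback inhibitor SPRY2 was lower, at 11.07 and 11.08 against 11.30 and 11.31 (-0.23 ± 0.036, adjusted p = 0.00113), and SPRY1 was lower by a difference of -0.49 ± 0.093, a call lost without siTET2 replicate 1. In all 7 of 24 (29.2%, against 7.24% of all genes) were lower, 3 without siTET2 replicate 1, 3 without siTET2 replicate 2, 4 without siTET3 replicate 1 and 3 without an intensity trend. The ERK phosphatase DUSP6 did not pass the test (-0.15 ± 0.0891), although siNTC exceeded both depletions.

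CRIPTO, a co-receptor for NODAL and a marker of pluripotent cells, was at 12.42 and 12.45 in siTET2 and at 13.05 and 13.06 in siTET3. The difference of 0.63 ± 0.038 (adjusted p = 1.21e-06) brought siTET3 to the siNTC level of 13.09 and 13.00. Of 26 measured pluripotency factors, 2 (7.69%, against 4.94% of all genes) were higher, CRIPTO and the RNA-binding protein L1TD1 (0.18 ± 0.034). The 1 lower factor (3.85%, against 7.24% of all genes) was ZIC2 (-0.26 ± 0.075). POU5F1 and NANOG were not among the 26 measured. The calls of L1TD1 and ZIC2 were lost without siTET2 replicate 2, and that of ZIC2 also without siTET2 replicate 1 and without siTET3 replicate 2. Lineage factors are given by name. Of 22 neuroectoderm factors the filament protein NES (0.39) was higher, and of 18 trophectoderm genes the keratin KRT8 (0.26) was higher and TFAP2A (-0.11) lower, but each call was lost when 1 of the siTET2 arrays was left out. In the fit on all 8 arrays the neuroectoderm share was 4.55% higher, and the trophectoderm shares were 5.56% higher and 5.56% lower. By limma 0 of 18 mesendoderm factors and 0 of 21 germ cell genes passed the test, with 0 and 3 at an unadjusted p under 0.05. Over all genes, 4.94% were higher and 7.24% lower. Above background lay 14 of the 22 neuroectoderm factors and 9 of the 18 trophectoderm genes. The same held for 11 of the 18 mesendoderm factors and 8 of the 21 germ cell genes.

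The other large increases were in genes of varied function. MBNL3, a muscleblind regulator of splicing, led them, at 8.83 and 8.91 in siTET2 and 9.78 and 9.93 in siTET3 (0.99 ± 0.061, adjusted p = 1.34e-06). Its siNTC level, 9.14 and 9.26, lay between the groups. POP4, a subunit of RNase P and RNase MRP, was at 9.28 and 9.33 in siTET3 against 8.53 and 8.61 (0.74 ± 0.070). ANXA1, a phospholipid-binding annexin, was at 10.29 and 10.37 against 9.69 and 9.58 (0.69 ± 0.062), above siNTC at 9.95 and 9.88. PAFAH1B2 (0.69), the phosphatidate phosphatase LPIN1 (0.67), the mitochondrial co-chaperone GRPEL2 (0.63), the kinesin KIF27 (0.60) and KBTBD8 (0.58) were higher as well. The tachykinin gene TAC4 (0.64), the trypsinogen gene PRSS3 (0.62) and GLIPR1 (0.59) lost their calls without siTET2 replicate 1 or 2, and GLIPR1 also without siTET3 replicate 1.

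Further large decreases fell outside these groups. NRN1, a neuritin of neurite outgrowth, was at 9.29 and 9.24 in siTET2, 8.038 and 7.996 in siTET3 and 5.59 and 5.75 in siNTC (-1.25 ± 0.076, adjusted p = 1.21e-06). HAS2, which makes hyaluronan, was at 7.38 and 7.33 against 6.33 and 6.32 (-1.03 ± 0.087), and the receptor tyrosine phosphatase PTPRB at 7.62 and 7.64 against 6.58 and 6.54 (-1.07 ± 0.085). The olfactory receptor gene OR5P2 was at 6.76 and 6.86 against 5.73 and 5.85, with siNTC below background. MTND2P28 was also lower (-1.26 ± 0.046), but this pseudogene is a near-identical copy of a mitochondrial gene, so its source is uncertain.

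Small RNAs that guide RNA modification held further decreases. H/ACA and Cajal body RNAs direct pseudouridylation and the modification of spliceosomal RNAs, and most are cut from the introns of host genes. Of 77 measured, 30 (39.0%, against 7.24% of all genes) were lower in siTET3 and 2 higher, with a median of -0.21 and 59 negative. Leaving out arrays lowered this, to 18 without siTET2 replicate 1 and 16 without siTET2 replicate 2. SCARNA7 was at 9.88 and 9.93 in siTET2 and at 8.82 and 8.78 in siTET3 (-1.10 ± 0.050, adjusted p = 1.31e-07), with siTET1 at 9.87 and 9.81 and siNTC at 9.23 and 9.15. Here siTET3 was the lowest group. SNORA60 was at 7.64 and 7.57 against 6.38 and 6.70 (-1.07 ± 0.17, adjusted p = 0.00129), and its siNTC arrays, 6.71 and 6.05, overlapped with siTET3. SNORA14B was at 8.66 and 8.57 against 7.66 and 7.79 (-0.89 ± 0.092). The siNTC mean lay below siTET3 for 20 of the 30, against 32.8% of all 1334 lower genes.

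Of 75 measured C/D box RNAs, which direct ribose methylation, 16 (21.3%, against 7.24% of all genes) were lower and 2 higher, with a median of -0.08. This number was 7 when either siTET2 array was left out and 7 without an intensity trend. SNORD53 was at 9.67 and 9.74 in siTET2 and 8.94 and 8.78 in siTET3 (-0.85 ± 0.061, adjusted p = 4.94e-06). The vault RNA VTRNA1-1, of the cytoplasmic vault particle, was at 12.04 and 11.97 against 11.51 and 11.36 (-0.57 ± 0.085), and siNTC was at 9.34 and 9.02. Among 189 measured microRNA genes 3 were higher and 4 lower, which became 16 and 7 without siTET3 replicate 2 and 0 and 1 without siTET2 replicate 1. The microRNA shares were 1.59% higher and 2.12% lower, against 4.94% and 7.24% of all genes. Of the 189 microRNA genes, 59 lay above background. Many of these small RNAs have near-identical copies, and their values cannot be assigned to 1 copy with certainty.

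Of 47 measured cell cycle and replication genes, 6 (12.8%, against 4.94% of all genes) were higher and 7 (14.9%, against 7.24%) lower, and the number lower was 4 without siTET2 replicate 1, 4 without siTET2 replicate 2, 11 without siTET3 replicate 2 and 4 without an intensity trend, which also left 2 higher. CCNB2, a mitotic cyclin, was at 10.57 and 10.60 in siTET2 and 9.94 and 9.88 in siTET3 (-0.68 ± 0.040, adjusted p = 9.20e-07), below siNTC at 10.95 and 10.92. CDKN1B, the p27 inhibitor of cyclin-dependent kinases, was at 8.43 and 8.48 against 7.85 and 7.92 (-0.57 ± 0.062). CENPE, a mitotic kinesin, went the other way, at 10.00 on both siTET3 arrays against 9.52 and 9.49 (0.49 ± 0.046), and the mitotic kinase AURKA was higher by 0.27 ± 0.044. The mitotic genes named here thus lay on both sides.

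Histone genes had 9 of 58 higher (15.5%, against 4.94% of all genes) and 7 lower (12.1%, against 7.24%). The number higher was 5 without siTET2 replicate 2, and the number lower was 3 without siTET2 replicate 1 and 12 without siTET3 replicate 2. Without an intensity trend 5 were higher and 3 lower. H2AC15 was at 9.41 and 9.39 in siTET2, 10.31 and 10.27 in siTET3 and 11.14 and 11.22 in siNTC (0.89 ± 0.0465, adjusted p = 5.32e-07). H4C5 was at 11.41 and 11.48 against 10.71 and 10.78 (-0.70 ± 0.064), and H3C12 was lower by a difference of -0.66 ± 0.0455. H4C14 and H4C15 had the same values on every array. Histone genes are near-identical copies, so single members are uncertain.

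Subunits of oxidative phosphorylation had 10 of 79 higher (12.7%, against 4.94% of all genes) and 10 lower (12.7%, against 7.24%). When either siTET2 array was left out, 3 were higher and 4 lower, without siTET3 replicate 1 the number higher was 6, and without an intensity trend both numbers were 4. COX8A of complex IV was at 10.89 and 10.93 in siTET2 and 11.39 and 11.51 in siTET3 (0.54 ± 0.0415, adjusted p = 7.27e-06), and COX6B1 was higher by 0.52 ± 0.048. NDUFS7 of complex I was lower by a difference of -0.41 ± 0.058 and NDUFB11 by -0.36 ± 0.035. Cytosolic ribosomal proteins had 18 of 60 lower (against 7.24% of all genes) and 3 higher by small amounts, from -0.36 in RPLP1 to 0.26 in RPL41. Their number lower was 7 without siTET2 replicate 1, 6 without siTET2 replicate 2, 8 without siTET3 replicate 1 and 1 without an intensity trend. After quantile normalization 14 were lower and 6 higher.

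In cholesterol synthesis and uptake 5 of 19 genes (26.3%, against 4.94% of all genes) were higher and 3 (15.8%, against 7.24%) lower. The enzymes SC5D (0.36 ± 0.046), MSMO1 (0.27 ± 0.040) and IDI1 (0.27 ± 0.037) were higher in siTET3, and SQLE (-0.29 ± 0.045) was lower. The number higher was 3 without siTET2 replicate 1, and the number lower was 1 without siTET2 replicate 2 or without an intensity trend. Of 22 p53 targets ZMAT3 (0.39) was higher, and of 28 interferon response genes EIF2AK2 (-0.15) was lower, a call lost when either siTET2 array or siTET3 replicate 1 was left out. The share of p53 targets higher was 4.55%, against 4.94% of all genes. The share of interferon genes lower was 3.57%, against 7.24%, and 9 of the 28 lay above background. RNA interference factors, through which the siRNAs act, had 4 of 14 lower (28.6%, against 7.24% of all genes), among them AGO4 (-0.34 ± 0.076, adjusted p = 0.0105) and TARBP2 (-0.27 ± 0.061). That number was 1 when either siTET2 array was left out, 2 without siTET3 replicate 1 and 1 without an intensity trend, and whether the level of these factors bears on the depletions was not tested.

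**Figure D5:**
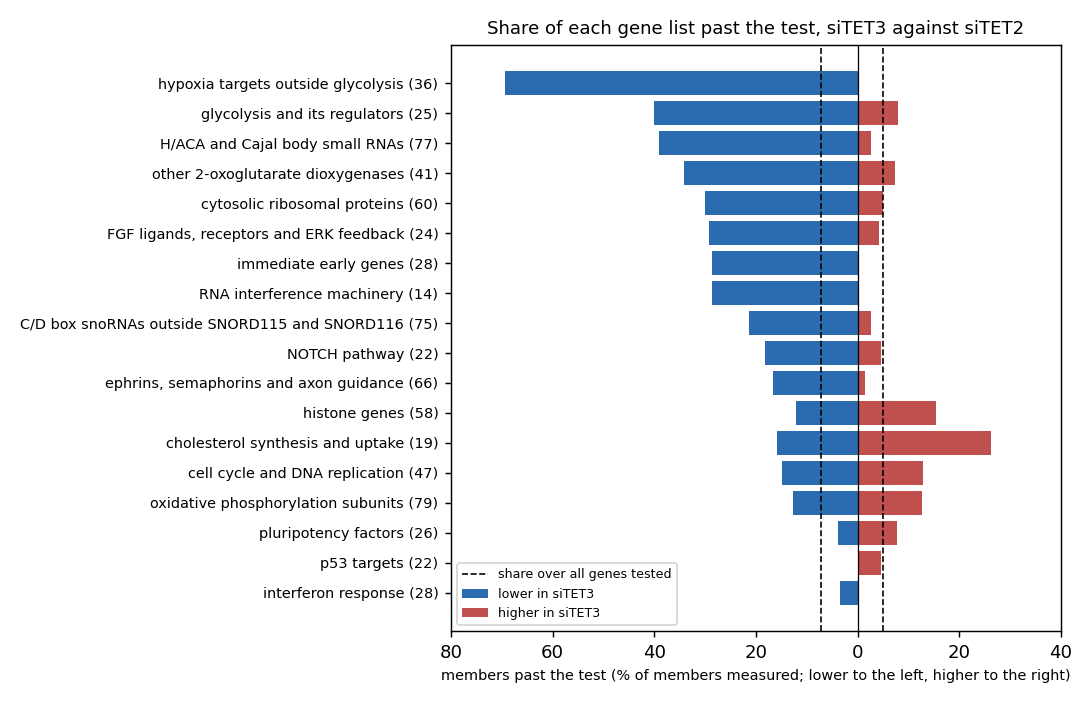
Share of the measured members of 18 gene lists, one to a row (number measured in parentheses) that were lower (blue, to the left) or higher (red, to the right) in siTET3 than in siTET2, as a percentage of members. Dashed lines mark the shares over all genes tested, 7.24% lower and 4.94% higher, and hypoxia targets outside glycolysis reach 69.4% lower.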

How the data were processed

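The authors deposited log2 intensities of 33297 transcript clusters, normalized between arrays. Partek is named in the submitters' processing notes. Its version and its background correction were not given in the sources used. Labelled cDNA was made from 250 ng of RNA. The array annotation gave 1 symbol to 19460 clusters, several to 1754 and none to 12083. A gene with several single-symbol clusters (769 genes) was represented by the brightest over all 8 arrays, which left 18417 genes. Background was the 95th percentile of 341 olfactory receptor gene means (log2 5.21), and 12749 genes (69.2%) lay above it. Where siTET3 arrays were not above background, the decrease is given as at least N-fold, and values under background were raised to it.

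All 8 arrays entered 1 linear model with a mean per group (limma 3.58.1, R 4.3.3, empirical Bayes with an intensity trend, 4 residual degrees of freedom plus 8.55 from the prior). The contrast was siTET3 minus siTET2, two-sided, with Benjamini-Hochberg adjustment over all genes and a threshold of 0.05. The number of arrays limits the precision, and since no source says that replicates were separate cultures, the p-values reflect spread among these arrays alone. The model code was tested on simulated data.

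The comparison, the 39 gene lists, the 6 marker lists and the tests were chosen with earlier results of these data known, so lists are described by counts and medians and not tested. Named genes were the TETs, 4 DNA methyltransferase genes, 4 housekeeping genes, the 15 largest differences each way past the test with no overlap between arrays, up to 6 members past the test of each list, and uncalled members needed for a role. Genes outside this rule are marked as chosen after their values were seen. Alternatives were quantile normalization, fitting 4 arrays, leaving out the trend or any 1 array, restricting to genes above background, averaging clusters, a replicate block, fold thresholds and a margin of 0.1 for positions. Promoters came from RefSeq (GRCh38.p14). Counts and figures used Python 3.11.15 and matplotlib 3.10.9.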

Additional observations from a re-analysis of the deposited data

Results flagged for a closer look

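Transcript clusters with no gene symbol or several were outside the comparison of genes. Of 13837 such clusters, 64 (0.463%) differed between siTET3 and siTET2 by limma, adjusted over these clusters, 31 higher and 33 lower, against 12.2% of the genes with 1 symbol. Of the 64, 54 had no symbol and 10 had several. At an unadjusted p under 0.05 the number was 1791, and 435 of these clusters passed when p-values were adjusted over all clusters. They are unnamed here.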

How the results depend on the processing

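Of 186 named or listed genes past the test, 92 stayed past it in every alternative run. None of the 183 other than the TETs changed direction. Of these, 61 lost the call without an intensity trend, 66 and 69 without siTET2 replicate 1 and 2, and 46 without siTET3 replicate 1. TET1 and TET3 stayed past the test in every fit, with TET1 from 0.66 to 0.78 and TET3 from -1.32 to -0.89 when single arrays were left out. TET2 ran from 0.28 to 0.54 and was 0.41 without an intensity trend (adjusted p = 0.0519). In a limma fit over all transcript clusters TET2 did not pass the test (adjusted p = 0.0806), while TET3 (0.0216) and TET1 (0.00198) did. Without an intensity trend 1018 genes passed, 402 higher and 616 lower, and 5 glycolysis genes were lower. With single arrays left out the count ran from 817 to 2836, from 354 to 1141 higher and from 461 to 1695 lower. Lower members ran from 5 to 11 in glycolysis, 4 to 9 among immediate early genes and 16 to 32 among H/ACA and Cajal body RNAs. A fold threshold at a 25% difference left 764 genes (270 higher, 494 lower), 1.5-fold left 95 (14 and 81) and 2-fold left 13 (0 and 13). With a margin of 0.1 on the log2 scale siNTC lay between the depletions for 672 of the lower genes and 474 of the higher ones, and below both for 132 of the higher ones. Signs turned for uncalled genes near 0. After quantile normalization DNMT3L was 0.0168 and RPL30 was 0.0091. With single arrays left out DNMT3L ran from -0.1162 to 0.051 and HIF1A from -0.0093 to 0.1031. The cause of these changes was not tested. With the replicate block 2287 genes passed, 937 higher and 1350 lower. The labels do not say that replicate numbers pair arrays. The deviations of same-numbered siTET2 and siTET3 arrays correlated at -0.04, those of siTET1 and siTET3 at 0.24, and those of the other group pairs from -0.03 to 0.03. Signal over background limits the dim genes, since 12749 of 18417 genes lay above background.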

Other observations

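Axon guidance genes and cadherins held further decreases in siTET3. Integrins, collagens and laminins (7.04% lower) and tight junctions (3.57%) did not exceed the 7.24% of all genes. Of 66 measured ephrin, semaphorin and axon guidance genes, 11 (16.7%, against 7.24% of all genes) were lower and 1 was higher, with a median of -0.10. These became 2 without siTET2 replicate 1, 4 without siTET2 replicate 2 and 7 without siTET3 replicate 1. The semaphorin SEMA7A was at 8.46 and 8.37 in siTET2 and 7.90 and 8.11 in siTET3 (-0.41 ± 0.075, adjusted p = 0.00337), a call lost without siTET2 replicate 1. Of 63 cadherins and protocadherins 7 (11.1%) were lower and 0 higher by limma, with 11 lower and 2 higher at an unadjusted p under 0.05, and 2 were lower without siTET2 replicate 2 and 4 without siTET3 replicate 1 or without an intensity trend. The clustered protocadherin PCDHB3 was at 7.59 on both siTET2 arrays, 6.73 and 7.10 in siTET3 and 8.70 and 8.71 in siNTC (-0.67 ± 0.10, adjusted p = 0.000991). PCDHB14 was lower as well (-0.58 ± 0.103). Members of this cluster are similar in sequence and may share signal.

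Chromatin regulators and imprinted genes differed in part. Of 34 Polycomb and trithorax subunits 6 (17.6%, against 7.24% of all genes) were lower and 1, the PRC2 subunit SUZ12 (0.24 ± 0.043), was higher. The H3 lysine 4 methyltransferase KMT2C was at 10.92 on both siTET2 arrays and 10.67 and 10.64 in siTET3 (-0.26 ± 0.038, adjusted p = 0.000770). Of the subunits 2 were lower without siTET2 replicate 1 and 3 without siTET2 replicate 2 or without an intensity trend. Among 15 imprinted genes 4 (26.7%) were lower, led by the signalling adaptor GRB10 (-0.41 ± 0.046, adjusted p = 0.000126), and 1, MEST (0.32 ± 0.048), was higher. Their number lower was 2 when either siTET2 array or siTET3 replicate 1 was left out. Of 439 ZNF zinc finger genes 23 (5.24%) were higher and 20 (4.56%) lower, where the shares over all genes were 4.94% and 7.24%. These were 10 and 6 without siTET2 replicate 1, 4 and 7 without siTET2 replicate 2, and 20 and 9 without siTET3 replicate 1, and 47 were lower without siTET3 replicate 2. Without an intensity trend they were 9 and 11.

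Genes of the stress response and of NOTCH signalling are given as values. Of 27 genes of amino acid and unfolded protein stress 4 (14.8%, against 4.94% of all genes) were higher and 3 (11.1%, against 7.24%) lower. PPP1R15A, which reverses the phosphorylation of the initiation factor eIF2, was lower (-0.57 ± 0.0804, adjusted p = 0.000629), and the transcription factor XBP1 (0.38 ± 0.0468, adjusted p = 0.000237) and the amino acid transporter SLC7A5 (0.34 ± 0.0539) were higher. The number lower was 1 without siTET2 replicate 1 and 1 without an intensity trend, which left 2 higher. In the NOTCH pathway 4 of 22 genes (18.2%, against 7.24% of all genes) were lower and 1 was higher. The lower genes were the ligands DLL1 (-0.44) and JAG1 (-0.34), the receptor NOTCH1 (-0.34) and the target HES1 (-0.36). Leaving out arrays left 1 lower without siTET2 replicate 1, 0 without siTET2 replicate 2 and 1 without siTET3 replicate 1.

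The remaining lists are given beside the shares over all genes, 4.94% higher and 7.24% lower. Of 43 genes of the NODAL, TGF-beta and BMP pathway 1 was higher, CRIPTO, and 3 (6.98%) lower, the ligand GDF3 (-0.25 ± 0.0322), ID2 (-0.22 ± 0.0369) and the receptor TGFBR2 (-0.39 ± 0.0978). Of 55 WNT genes 4 (7.27%) were lower, from 0 to 5 with single arrays left out (0 without siTET2 replicate 2, 1 without siTET2 replicate 1). Integrins, collagens and laminins had 5 of 71 (7.04%) lower and 1 higher, and 1 and 0 were lower without siTET2 replicates 1 and 2. In tight junctions 1 of 28 genes, TJP1 (-0.16), and in the contractile list 1 of 16, TPM1 (-0.25), was lower, and both calls were lost when either siTET2 array or siTET3 replicate 1 was left out. Heat shock proteins had 2 of 12 (16.7%) higher, HSP90AA1 (0.16) and HSPD1 (0.13), and DNAJA1 (-0.23) lower, and the 3 calls were lost when either siTET2 array was left out. Of 44 amino acid transporters 3 (6.82%) were higher and 2 lower, and 6 were higher without siTET3 replicate 2.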
